A study of Mus musculus with 2 samples.

Results

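Dietary fat enters the enterocyte, the absorptive cell of the small intestine, as fatty acids and monoacylglycerol, and leaves it as triglyceride packed into chylomicrons. Here 10 genes of that route were followed in intestinal RNA, found on the array by their symbols: Mogat2, Dgat1 and Dgat2, which rebuild triglyceride, Plin2, which coats lipid droplets, Mttp, Apob, Apoa1, Apoa4 and Apoc3, which make and dress the particle, and Sar1b, which starts its export. All 10 were among the 18988 genes or unnamed probes tested. Together they held 19 of the 41174 different probes of the array and 28 of its 43379 gene spots, because the Apoa1 probe was printed 10 times.

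As background, Mogat2 joins an acyl chain to monoacylglycerol and the DGAT enzymes add the last chain, all at the endoplasmic reticulum. The microsomal transfer protein encoded by Mttp loads the new triglyceride onto apolipoprotein B as that protein is made, and apolipoprotein A-IV enlarges the particle. Prechylomicrons then travel to the Golgi in carriers that need the COPII coat, whose GTPase is encoded by Sar1b, and surplus triglyceride waits in cytosolic droplets covered by perilipin 2. People without working MTTP, APOB or SAR1B absorb fat poorly and fill their enterocytes with lipid.

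Male C57BL/6 mice, 20 weeks old and on a normal diet, were labelled either deficient in Gpcpd1 in the gut or wild type. Gpcpd1 encodes GDE5, which splits glycerophosphocholine, and the comparison asks which intestinal transcripts differ without it. Each of 2 dual-colour arrays took RNA of both genotypes, with the knockout in Cy3 in replicate 1 and in Cy5 in replicate 2. The number of mice in the series text is 5. Pooling, the driver of the gut deletion, the alleles carried by the wild type and the gut segment are not given in the sources used here. Ratios set RNA labelled knockout over RNA labelled wild type on the log2 scale, as mean ± SD of both arrays (n = 2). With no statement that the arrays hold separate animals, the adjusted p-values measure only the spread between these hybridisations, which may be technical.

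The targeted gene went against its label. The brightest probe of Gpcpd1 had log2 ratios of 0.28 in replicate 1 and 1.08 in replicate 2, and 3 of the gene's 4 probes were on both arrays higher in the knockout RNA. The deleted exons are not given in the sources used here, so these probes may lie outside it and check nothing. Every direction below therefore rests on the dye labels. Across all genes the ratios of the arrays correlated at r = -0.38 (Spearman -0.42), and 64.9% of genes had opposite genotype directions on the arrays. The ratios processed by the scanner software, in which r was -0.02, are therefore given beside the values normalised with normexp and loess.

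The probes over coding sequence that the results turn on are shown here, 5′ to 3′ and as on the sense strand, because several genes were read by more than 1 probe and the probes did not always give the same ratio. The first 5 belong to Apob and are named with the start listed for them in its transcript. The probes that start at 13397 and 13457 lie end to end.
Apob 3189, A_51_P436690: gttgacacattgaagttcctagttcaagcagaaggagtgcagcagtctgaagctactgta
Apob 6486, A_51_P413088: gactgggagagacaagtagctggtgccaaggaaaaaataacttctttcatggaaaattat
Apob 10517, A_51_P380650: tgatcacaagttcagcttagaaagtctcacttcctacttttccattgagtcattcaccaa
Apob 13397, A_51_P470542: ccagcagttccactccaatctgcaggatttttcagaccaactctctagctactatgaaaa
Apob 13457, A_52_P441070: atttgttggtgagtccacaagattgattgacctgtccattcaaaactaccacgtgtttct

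The Apoc3 probes overlap, and the capitals mark the 50 bases they share, so they are not separate evidence. In the Dgat2 probe the capitals mark the stop codon that ends its coding sequence; both other Dgat2 probes start after it. The Apoa4 and Mttp probes are the only ones for those genes.
Apoc3, A_52_P574306: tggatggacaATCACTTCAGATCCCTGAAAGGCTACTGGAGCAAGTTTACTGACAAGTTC
Apoc3, A_51_P310629: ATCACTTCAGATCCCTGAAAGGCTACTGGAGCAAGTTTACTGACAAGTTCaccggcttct
Dgat2, A_52_P359739: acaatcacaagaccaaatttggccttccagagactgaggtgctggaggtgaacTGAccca
Apoa4, A_51_P327491: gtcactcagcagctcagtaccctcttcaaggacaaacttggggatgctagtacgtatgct
Mttp, A_51_P178887: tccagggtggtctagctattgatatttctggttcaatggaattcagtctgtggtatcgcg

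None of the 10 genes was called different between the genotypes. By limma, 0 of 18988 genes (0%) had an adjusted p under 0.05, and the adjusted p was 1 for each of the 10. The unadjusted p was under 0.05 for 236 genes (1.24%), and none of the 10 was among them. Dgat2 was at an unadjusted p of 0.0662 in limma. This became 0.0212 with outlier-marked spots kept, although no spot of the 10 genes was itself marked. With a smooth trend subtracted it became 0.0368, and limma's adjusted p was 0.9999 in both. A difference of at least 1.5-fold with the same sign on both arrays was seen for 41 genes (0.216%), higher in knockout for 30 (0.158%) and lower for 11 (0.0579%), and for none of the 10. Their mean ratios, taken from the brightest probe of each gene, ran from -0.05 for Apob to 0.43 for Dgat2, with a median of 0.06 against -0.01 over all genes tested.

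On both arrays Apoa4, Apoc3, Mttp and Dgat2 were higher in the knockout RNA, as were 16.9% of all genes. None of the 10 was lower on both, as 18.1% of all genes were. The other 6, Apoa1, Apob, Dgat1, Mogat2, Sar1b and Plin2, went opposite ways. Of these 6, 4 had the brighter Cy3 signal on both arrays and 2 the brighter Cy5 signal, as had 6371 and 5956 of all 18988 genes. With the scanner software's ratios, 5 of the 10 were higher on both arrays, 1 lower and 4 opposite, and with median centring in place of loess the counts were 2, 1 and 7. Of all genes, 58.7% were opposite with the scanner software's ratios and 71.6% with median centring. Intensities are from bulk RNA, in which fewer cells of a type and less RNA per cell cannot be told apart.

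**Figure D1:**
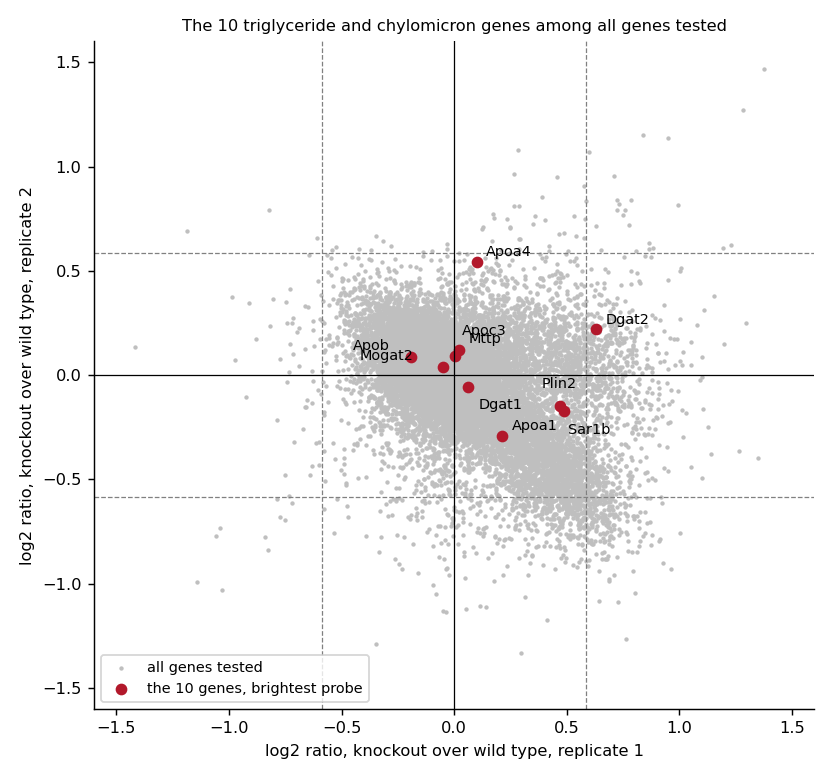
Log2 ratio of replicate 1 against that of replicate 2 for all 18988 genes tested (grey, 8 of them outside the axes) and for the 10 genes of triglyceride resynthesis and chylomicron assembly (red, brightest probe). Dashed lines mark 1.5-fold, and no red point lies past 1.5-fold on both arrays; genes in the lower right and upper left of the plot had opposite genotype directions.

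Mogat2 starts the monoacylglycerol route, the main source of chylomicron triglyceride in the small intestine. Its probe A_51_P411345 (chromosome 7, 106367601 to 106367660 on mm9, minus strand) gave normalised intensities of 36496 in the RNA labelled knockout and 37827 in wild type in replicate 1, and in replicate 2 34920 and 34020. The genotypes thus swapped order between the arrays. The log2 ratio was -0.01 ± 0.06, and limma's 95% interval for the mean ran from 0.76-fold to 1.30-fold. The second probe, A_52_P125795, targets an Ensembl transcript, and its listed span of 5886 bases on the genome means that it crosses an intron. It was the dimmest of the probes followed here, at 128 in knockout and 132 in wild type in replicate 1, and in replicate 2 137 and 125. Its log2 ratio was 0.04 ± 0.13, again with opposite signs. These low intensities include the normexp offset, and the part of the offset in this ratio was not tested.

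Dgat1 encodes the broad-specificity acyltransferase that completes the triglyceride in enterocytes. Its brightest probe, A_52_P456134 (chromosome 15, 76333128 to 76333274, minus strand), read 5415 in knockout and 5186 in wild type in replicate 1, and in replicate 2 5119 and 5328. Its log2 ratio was 0.00 ± 0.08, with an interval from 0.77-fold to 1.31-fold. The other probe, A_51_P510059, was at 0.07 and -0.32 on the arrays, a mean of -0.12 ± 0.27. Both probes span more genomic bases than their 60 (147 and 217) and so cross exon junctions. Both had the brighter Cy3 signal on each array, also in the scanner software's ratios. So had the brightest probe of 6371 of all 18988 genes after normexp and loess.

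Dgat2 encodes the second acyltransferase of this step, unrelated in sequence to Dgat1, and lies beside Mogat2, with 64489 bases between their nearest probes. It was the gene of the 10 with the largest ratio, but only at 1 of its 3 probes. The 3′-most probe, A_52_P592909 (chromosome 7, 106302215 to 106302274), read 19681 in knockout and 12705 in wild type in replicate 1, and in replicate 2 23038 and 19764. The knockout was the brighter on both arrays. Its log2 ratio was 0.43 ± 0.29, a 1.34-fold difference with an interval from 0.97-fold to 1.86-fold.

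Neither upstream Dgat2 probe showed this. The probe over the stop codon, A_52_P359739 (transcript start 1312), read 341 in knockout and 357 in wild type in replicate 1, and in replicate 2 336 and 367, a log2 ratio of -0.10 ± 0.04. The probe that starts at 1393, A_51_P396003, was at -0.17 and 0.03, a mean of -0.07 ± 0.15. The scanner software's ratios gave the same split, with 0.36 and 0.28 at the probe starting at 2149 against 0.06 and -0.26 at 1312 and -0.02 and -0.11 at 1393. So the rule of the brightest probe decides the value of the gene: with the mean of the 3 probes, the Dgat2 ratio was 0.09. The difference between the probes was not tested.

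**Figure D2:**
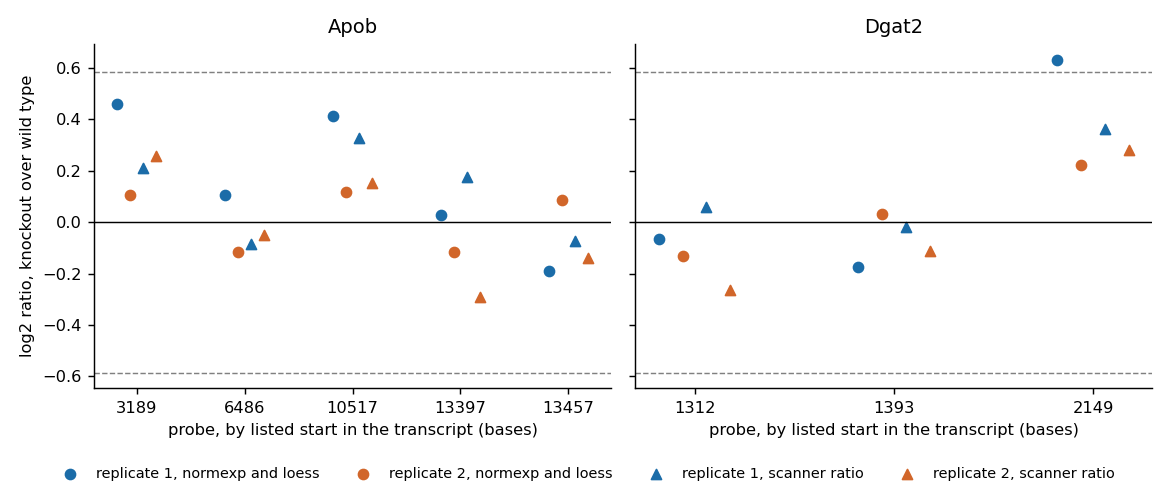
Log2 ratio of each Apob and Dgat2 probe on both arrays, with probes in order of their listed start in the transcript (evenly spaced, not to scale) and dashed lines at 1.5-fold. Circles are normexp and loess values and triangles the scanner software's ratios; only the Dgat2 probe at 2149 lies above 0 in all 4 values, and of the Apob probes those at 3189 and 10517 do.

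Plin2 coats cytosolic droplets and rises in enterocytes during fat absorption. Its single probe, A_51_P258150 (chromosome 4, 86302676 to 86302735), read 7245 in knockout and 5229 in wild type in replicate 1, and in replicate 2 6926 and 7677. The knockout signal was higher in replicate 1 and lower in replicate 2. The log2 ratio was 0.16 ± 0.44, and its interval from 0.75-fold to 1.66-fold leaves differences of either sign. With the scanner software's ratios the values were 0.13 and -0.02.

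Mttp was among the genes with the smallest spread between the arrays. The probe (chromosome 3, 137757948 to 137758007, minus strand) read 3505 in knockout and 3451 in wild type in replicate 1, and in replicate 2 3910 and 3602. The knockout was slightly the brighter on both. The log2 ratio was 0.07 ± 0.07, with an interval from 0.81-fold to 1.37-fold. The scanner software's ratios were larger, 0.10 and 0.28.

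Apob encodes the structural protein of the chylomicron, which in the gut is made in a short form through editing of its mRNA. By sign on the arrays, its 5 probes gave 2 kinds of result. The probes starting at 3189 and 10517 were on both arrays higher in the knockout RNA: the first read 396 against 288 in wild type in replicate 1 and 406 against 377 in replicate 2, and the second 395 against 297 and 371 against 342. Their log2 ratios were 0.28 ± 0.25 and 0.26 ± 0.21. These probes flank the one at 6486, so position along the transcript did not order the ratios.

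The other 3 Apob probes had opposite signs on the arrays. The probe at 6486 was at 0.00 ± 0.16, the one at 13397 at -0.04 ± 0.10 and the adjoining one at 13457 at -0.05 ± 0.20. The last, the brightest (chromosome 12, 8023194 to 8023253), read 35982 in knockout and 41098 in wild type in replicate 1, and in replicate 2 44339 and 41748, with an interval from 0.72-fold to 1.29-fold. With the scanner software's ratios, the probes at 3189 and 10517 were again higher on both arrays (means 0.23 and 0.24), while those at 6486 and 13457 were lower on both (means -0.07 and -0.10). The mean over the 5 probes was 0.09. Apobec1, the enzyme that edits the Apob transcript, was at -0.16 ± 0.14.

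Apoa1, Apoc3 and Apoa4 are a gene cluster on chromosome 9, with 3372 bases between the Apoa1 and Apoc3 probes and 8238 between those of Apoc3 and Apoa4. The 3 did not share 1 pattern. Apoa1, the main protein of high-density lipoprotein and a coat protein of new chylomicrons, was read by 10 spots of 1 probe (46037921 to 46037980). In replicate 1 the log2 ratios of the spots ran from 0.02 to 0.60 with a median of 0.13, and all 10 were above 0. In replicate 2 they ran from -0.63 to -0.10 with a median of -0.29, and all 10 were below 0.

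The Cy3 signal of Apoa1 was thus the brighter at every spot on both arrays, whichever genotype carried it. By probe means, Cy3 was the brighter on both arrays for 6371 of all 18988 genes. The array means of 0.21 and -0.29 gave -0.04 ± 0.36, with an interval from 0.68-fold to 1.39-fold. The spots of 1 array differed by an SD of 0.22 in replicate 1 and 0.16 in replicate 2, near the median SD of 0.18 and 0.12 over the 245 probes printed 10 times. The other 9 genes had 1 spot for each probe, and their spread within an array was not measured.

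Apoa4, whose protein rises with fat absorption, had the second largest ratio of the 10. Its probe (46049661 to 46050404, crossing an intron) read 661 in knockout and 617 in wild type in replicate 1, and in replicate 2 800 and 549. The knockout was the brighter on both, by little in the first. The log2 ratio was 0.32 ± 0.31, a 1.25-fold difference with an interval from 0.89-fold to 1.75-fold. The scanner software's ratios were 0.05 and 0.57, with the same imbalance between the arrays. With outlier-marked spots kept, the mean fell to 0.19, although the Apoa4 spot was itself not marked on either array.

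Apoc3, which slows the clearance of triglyceride-rich particles, was nearly level between the genotypes on both arrays. Probe A_51_P310629 (46041353 to 46041412, minus strand) read 1897 in knockout and 1892 in wild type in replicate 1, and in replicate 2 1900 and 1784, a log2 ratio of 0.05 ± 0.06. The overlapping probe was at 0.06 ± 0.01. The interval of the first, from 0.79-fold to 1.35-fold, still leaves room for moderate differences.

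Sar1b, the GTPase that recruits the COPII coat for chylomicron export, had the widest spread of the 10. Its probe (chromosome 11, 51605100 to 51605159) read 8639 in knockout and 6160 in wild type in replicate 1, and in replicate 2 7698 and 8661. The log2 ratios of 0.49 and -0.17 gave 0.16 ± 0.47, with an interval from 0.74-fold to 1.68-fold. The spot lies in row 97 of the array, and with a smooth trend along rows and columns subtracted the ratios were 0.37 and -0.11. With the scanner software's ratios they were 0.14 and 0.02, both above 0. Its near relative Sar1a was at -0.02 ± 0.51.

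**Figure D3:**
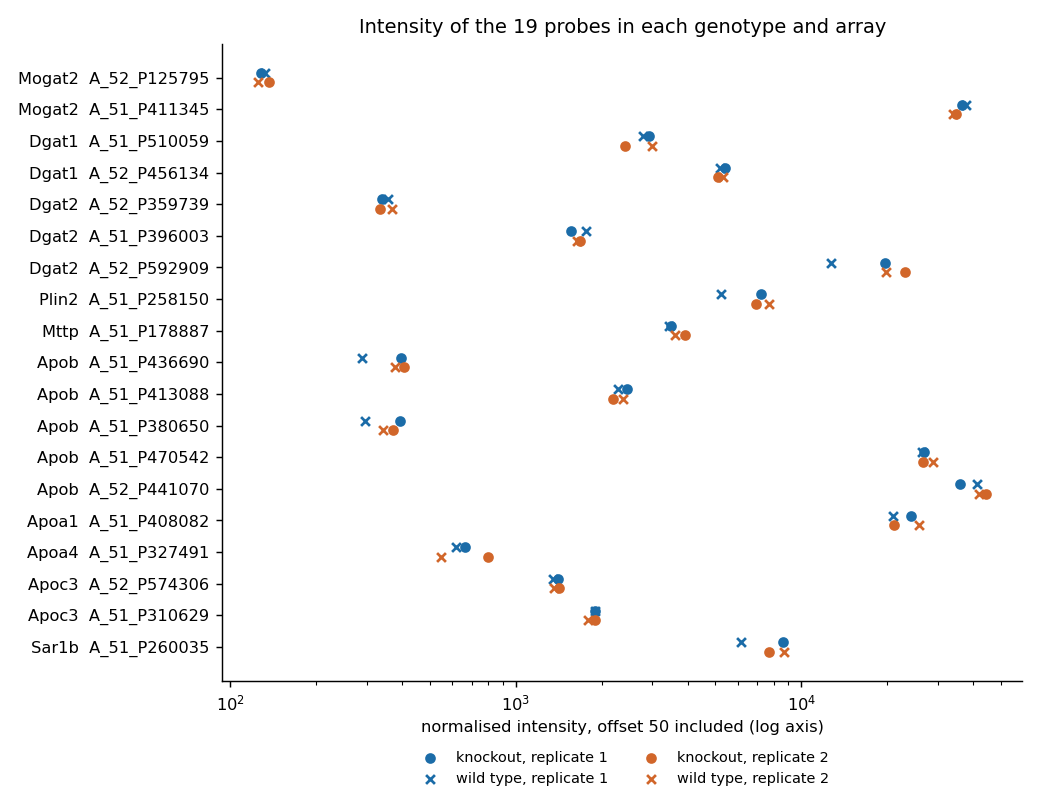
Normalised intensity of the 19 probes in each genotype and array (log axis, circles for knockout and crosses for wild type, replicate 1 in blue and replicate 2 in orange). Levels of different probes are not comparable; within a probe, the circle and cross of 1 array lie close together for all but a few, such as Dgat2 A_52_P592909 in replicate 1 and Apoa4 in replicate 2.

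Counted by probe, 7 of the 19 were on both arrays higher in the knockout RNA, 1 was lower on both and 11 went opposite ways, where 17.4%, 18.8% and 63.9% of the 29047 probes tested did so. With the scanner software's ratios the counts were 8, 3 and 8, where the shares of all probes were 20.7%, 21.5% and 57.8%. The same 7 probes were higher on both arrays in both processings: those of Apoa4 and Mttp, both of Apoc3, 2 of Apob and 1 of Dgat2. Both processings start from the same scans, so this is not a second observation, and the share of all probes that did so was not counted. All 19 probes were well above background in both genotypes on both arrays, and 0 of them passed limma when every probe was tested (smallest adjusted p = 1).

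**Figure D4:**
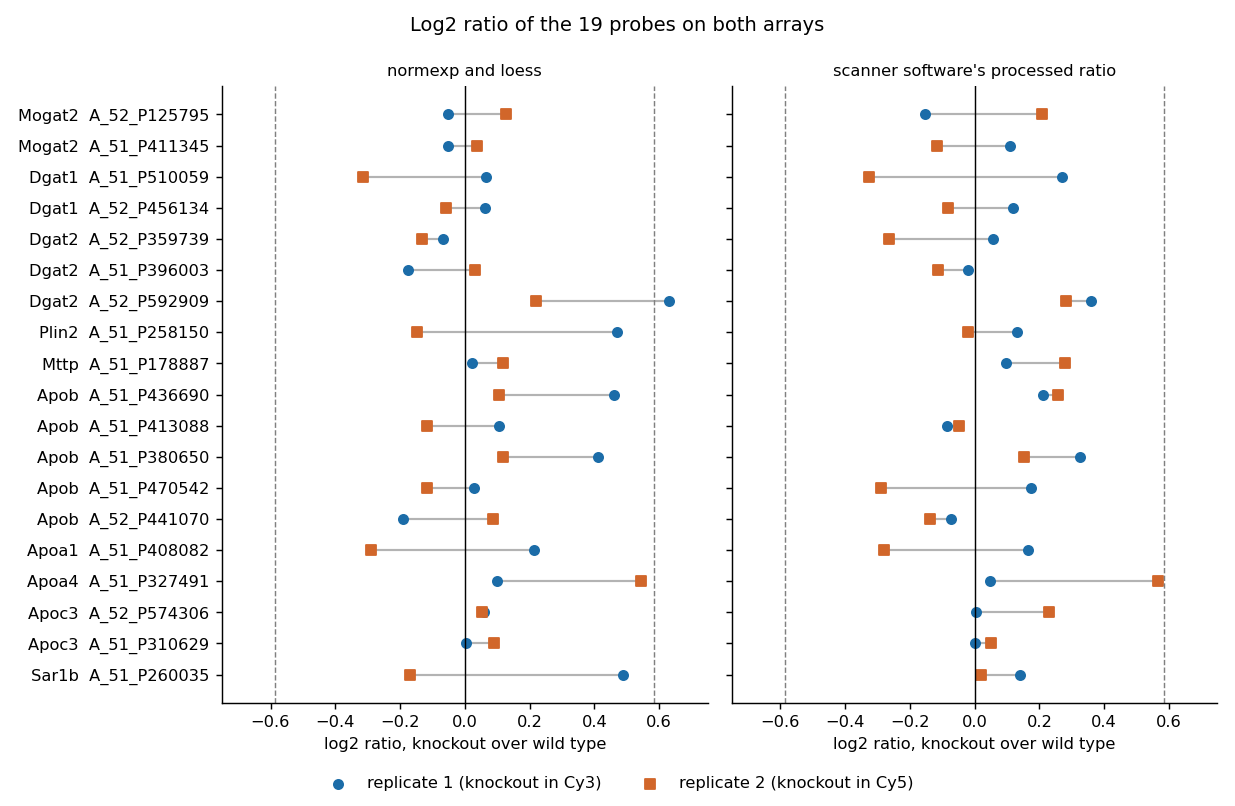
Log2 ratio of the 19 probes on replicate 1 (blue circles) and replicate 2 (orange squares), joined by a grey line, after normexp and loess (left) and as processed by the scanner software (right), with dashed lines at 1.5-fold. Lines that cross 0 mark probes whose direction changed with the array: 11 on the left and 8 on the right.

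The wider route was read through 7 lists of other genes, chosen by function, of which 130 genes were tested. Of these, 24 were on both arrays higher in the knockout RNA, 23 lower and 83 opposite, with a median of -0.02. None passed limma (adjusted p = 1 for each gene named here), none had an unadjusted p under 0.05, and none was at least 1.5-fold apart on both arrays. These shares are close to those over all genes. With the scanner software's ratios, 28 of the 130 were higher on both arrays and 30 lower, where 58.7% of all genes were opposite. The balance moved with the processing. With median centring the counts were 7 and 26, where 71.6% of all genes were opposite. They were 20 and 29 with the mean of probes, 27 and 22 with a smooth trend subtracted, and 15 and 30 of 131 with outlier-marked spots kept. In these, 63.9%, 62.9% and 60.1% of all genes were opposite.

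Among genes of triglyceride synthesis from glycerol phosphate and monoacylglycerol, 3 of 16 were higher on both arrays and 2 lower. The phosphatidate phosphatase Lpin1 was at 0.16 ± 0.02 and Agpat4, which acylates lysophosphatidate, at 0.18 ± 0.19, while Lpin3 was at -0.10 ± 0.03 and the droplet protein Aup1 at -0.12 ± 0.09. In the scanner software's ratios Agpat4 went opposite ways (-0.12 and 0.36), while Lpin1, Lpin3 and Aup1 kept their directions. Of 12 genes of fatty acid activation, 2 were higher on both and none lower: the acyl-CoA synthetase Acsl5 at 0.10 ± 0.04 and the transporter Slc27a2 at 0.24 ± 0.26. The other 10 went opposite ways.

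Of 15 further genes of chylomicron apolipoproteins and lipoprotein assembly, 3 were higher on both arrays and 3 lower. Apoe, a ligand for remnant uptake, was at 0.19 ± 0.10, the cholesterol esterifying enzyme Soat2 at 0.10 ± 0.01 and Apoc4 at 0.07 ± 0.01. In the scanner software's ratios Soat2 (0.26 and -0.004) and Apoc4 (0.54 and -0.08) went opposite ways. Apoe stayed above 0 on both arrays there (0.25 and 0.03). Pla2g12b, which helps lipid loading of lipoproteins, was at -0.19 ± 0.05. P4hb, the partner subunit of the Mttp protein, was at 0.02 ± 0.04, and Apoa5, which belongs to the chromosome 9 cluster, at -0.07 ± 0.10; both went opposite ways.

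Genes of the COPII coat and of export to the Golgi were higher on both arrays in 5 of 24 cases and lower in 2. Vamp7, a SNARE of the prechylomicron carrier, had the largest value of that list at 0.38 ± 0.23, with 0.55 and 0.22 on the arrays and 0.32 and 0.31 in the scanner software's ratios. Its partner Vti1a was at 0.15 ± 0.03 and Sec16b, of the exit sites, at 0.07 ± 0.05. Preb, which activates the Sar1 GTPases, was at -0.08 ± 0.10. In the scanner software's ratios Vti1a went opposite ways (-0.09 and 0.38) and Preb was above 0 on both arrays (0.025 and 0.08). Sec16b stayed above 0 on both (0.06 and 0.01).

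Of 24 genes of lipid droplets and lipolysis, 1 was higher on both arrays and 6 lower. The perilipins Plin1 and Plin5 were at -0.15 ± 0.09 and -0.13 ± 0.07 and Cideb, which acts in lipoprotein lipidation, at -0.08 ± 0.02. The lipase Pnpla3 was at 0.13 ± 0.09. In the scanner software's ratios Plin1 went opposite ways (0.05 and -0.32), while Plin5, Cideb and Pnpla3 kept their directions. Of 14 genes of lipoprotein receptors and plasma lipolysis, 1 was higher and 5 lower. Angptl8, which takes part in inhibiting lipoprotein lipase, was at -0.20 ± 0.00, with -0.08 and -0.44 in the scanner software's ratios.

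Transcription regulators of enterocyte lipid genes had 9 of 25 members higher on both arrays and 5 lower, with a median of 0.01. Ppara, the fatty acid receptor, was at 0.26 ± 0.00, its coactivator Ppargc1a at 0.40 ± 0.34 and Creb3l3, an activator of apolipoprotein genes, at 0.20 ± 0.11. Mlxipl, which responds to glucose, was at -0.18 ± 0.07. In the scanner software's ratios these genes kept their directions, Ppara at 0.12 and 0.33. Hnf4a, a main regulator of the apolipoprotein cluster, was at 0.66 and -0.78 on the arrays, so its value of -0.06 ± 1.02 says nothing on direction.

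**Figure D5:**
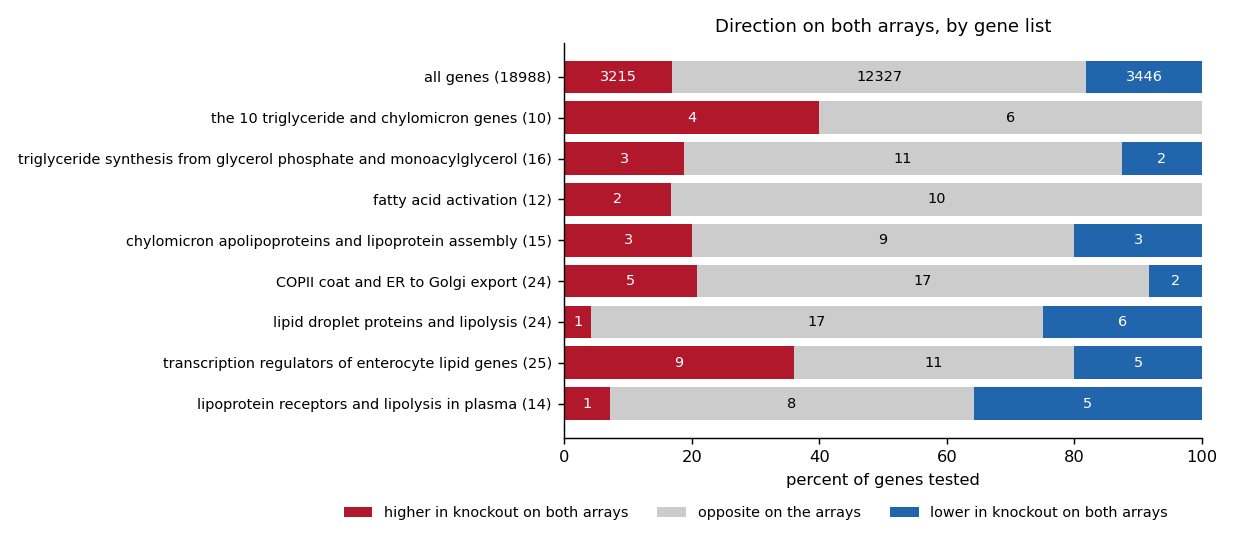
Percent of the genes tested in each list that were on both arrays higher in the knockout RNA (red), lower on both (blue) or opposite (grey), with counts in the bars and the number tested after each name. The 10 genes had 4 higher and 0 lower, and in all rows but the transcription regulators the opposite share was over 50%.

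Markers were read beside these values. All 8 enterocyte markers on the array had a probe well above background in every channel. Their summed intensity was 451200 and 453700 in the RNA labelled knockout and 484000 and 453000 in wild type, and 2 were higher on both arrays and 3 lower. Lct, the lactase, was at 1.41 ± 0.61 and the other 7 between -0.15 and 0.05.

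Of the proximal small intestine markers only 3 of 5 had a probe well above background in every channel, against 4 of 4 distal and 4 of 4 colon markers. Only these 3 proximal markers were tested. Slc40a1 was lower on both arrays at -0.34 ± 0.30, Onecut2 higher at 0.13 ± 0.07 and Cybrd1 opposite at -0.20 ± 0.56. The 4 distal markers all went opposite ways, Fabp6 at 0.79 and -0.67. Adipocyte markers, of a cell type that also uses Dgat2 and Plin2, were lower in sum, at 22750 and 20350 against 27150 and 26290 in wild type, with 3 of 6 lower on both and none higher. Lep was the 1 of the 6 without a probe well above background in every channel. Macrophage markers, of cells that can also hold Plin2 droplets, summed to 91800 and 116400 against 137800 and 103300, with all 5 opposite.

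Hepatocyte markers, of the other cell type that makes these apolipoproteins, summed to 2026 and 2142 against 3397 and 3422. Of the 5 tested, 3 were lower on both arrays (Tat at -1.07 ± 0.10, Cyp2e1 at -0.44 ± 0.07 and Fgb at -0.22 ± 0.26), Ttr was higher on both at 0.12 ± 0.08 and Apoh went opposite ways at 0.10 ± 0.32. The Alb probe was not well above background in any channel.

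Skeletal muscle markers summed to 3052 and 3014 in the RNA labelled knockout against 1803 and 1666 in wild type. The myosin heavy chains Myh4 and Myh8 were at 2.18 ± 0.23 and 2.10 ± 0.02 (adjusted p = 0.7525 and 0.6399 in limma). The Myh8 value rests on 1 of its 4 probes, as the other 3 were not well above background in any channel. Ckm and Acta1 were lower on both arrays, at -0.07 ± 0.08 and -0.07 ± 0.09. Paneth cell markers summed to 183100 and 177100 against 243900 and 229400, with 3 of 4 lower on both arrays and 1 opposite. Goblet cell markers had 1 of 5 higher on both and 4 opposite, colon markers 2 of 4 higher and 1 lower, and the exocrine pancreas list 1 of 2 lower. All 4 smooth muscle markers went opposite ways. The part of these marker differences in the values above was not tested.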

How the data were processed

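Per the file headers, the authors' deposited scanner files hold the intensity of each spot and of its local background from Agilent Feature Extraction 11.5.1.1 (9.5 in the submitters' processing notes), on design 014868 and mm9. Their deposited log10 ratio column is processed Cy5 over processed Cy3, background-subtracted, detrended and dye-normalized by that software. The value table deposited for the series repeats this ratio, rounded.

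Here, marked spots (133 and 193 outliers, 47 for background in replicate 2) and control spots were left out, then normexp (offset 50) and loess were run within each array in R 4.3.3 with limma 3.58.1. Keeping control spots in normexp was added as an alternative after the data were seen. Spots of a probe were averaged and ratios given as knockout over wild type. Probes entered the test if 1 genotype was well above background on both arrays, and each gene took its brightest probe. Mean ratios were tested against 0 in limma (lmFit, eBayes; residual degrees of freedom 1, prior 3.01), with Benjamini-Hochberg adjusted p under 0.05 as threshold. Normalised intensities include the offset. Symbols came from RefSeq accessions (GRCm38.p6 table, 31441 spots matched). The number of arrays limits the precision. No spot was saturated.

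Named genes are the 10, Gpcpd1 and, for each list, up to 4 genes in the same direction on both arrays with the largest smaller ratio. Some genes that this rule names are not reported here. Apobec1, Sar1a, P4hb, Apoa5, Hnf4a and the markers named are outside that rule and were picked with their values in view. The 10 genes, lists and tests were chosen with earlier results of these data known. The steps were run on simulated data, but the recovery of ratios as small as those of the 10 genes was not tested.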

Additional observations from a re-analysis of the deposited data

How the results depend on the processing

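None of the 10 genes passed limma in any alternative with a test (smallest adjusted p = 0.9994), and none was at least 1.5-fold apart on both arrays in any. The sign of the mean ratio of Apoa4, Mttp and Dgat2 was positive in all 12 alternatives, Dgat2 from 0.09 to 0.63. The alternatives use the same 2 arrays, so they are not separate evidence of direction. The 0.09 of Dgat2 came with the mean of its probes and the other values from its brightest probe, which its other probes did not follow. Over all genes, limma called 22 with normexp offset 0, 38 with the scanner software's ratio, 36 with the deposited value table and 4 with a surface removed. Genes at least 1.5-fold apart on both arrays numbered 89, 159 and 157 in the first 3 of these and 24 with outlier-marked spots kept. Of the 10 genes, 2 were higher on both arrays with normexp offset 0 and 2 with median centring, where 65.8% and 71.6% of all genes were opposite. With each probe as its own row, 7 of the 19 probes of the 10 genes were higher on both, as were 17.4% of all probes. Of 224 pathway probes, 79 were in the same direction on both and the rest opposite, where 63.9% of all probes were opposite. The median of the 10 genes was 0.06 and became 0.0412 with the scanner software's ratio and 0.0407 with the value table, 0.013 with median centring, 0.106 with marked spots kept, 0.0867 with a surface removed, 0.0778 with the mean of probes and 0.0383 by probe. Leaving out 1 array, which leaves values and no test, gave medians from 0.0622 to 0.0809 and from 6 to 8 genes above 0. Over all genes the medians were 0.0025 in replicate 1 and -0.0081 in replicate 2, and the share above 0 was not counted.

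Ratios near 0 changed sign. Dgat1 was at -0.0117 with normexp offset 0, -3e-04 without background correction, -0.0525 with median centring, -0.0067 with marked spots kept and -0.0611 with the mean of probes. With marked spots kept, Apoa1 was at 0.0575, Apob at 0.0919, Apoc3 at -0.0032 and Mogat2 at 0.119. No spot of these genes was itself marked, so this setting changed only which other spots entered the normalisation. Mogat2 was at 0.0024 with a surface removed and 0.0156 with the mean of probes, where Apob was at 0.0887. Leaving out 1 array gave ranges of -0.291 to 0.214 for Apoa1, -0.192 to 0.0868 for Apob, -0.0576 to 0.0623 for Dgat1, -0.0517 to 0.0376 for Mogat2, -0.17 to 0.488 for Sar1b and -0.149 to 0.471 for Plin2. The causes were not tested. Each ratio sets both genotypes side by side on 1 array, so the test of the mean ratio is itself paired, with 2 hybridisations. Whether these are 2 pairs of separate animals is not stated. A dye term was not fitted, since it would use the only residual degree of freedom.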
